A study of Homo sapiens with 5 samples.

Results

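The immediate early genes FOS, FOSB, JUN, JUNB, JUND, EGR1, IER2, IER3 and ATF3 were examined for called sites of transcription initiation in HUDEP-2 cells, an immortalised human line of erythroid progenitors. They were chosen by name, 9 of 19974 protein-coding genes on chromosomes 1 to 22 and X. Of these 9 genes 8 had a called start within 500 bp of the annotated start on their own strand, against 41.6% of all protein-coding genes. ATF3 had none at its outermost annotated start but had 1 own-strand call inside the gene, where not all inner starts were examined. The calls within the genes and 20 kb of them number 74 of the 28159 on these chromosomes. They were grouped by strand, by distance from the gene start, by a partner on the opposite strand and by whether they lay past the gene end.

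The calls come from PRO-seq, in which engaged RNA polymerases in isolated nuclei add biotin-labelled nucleotides to the RNA they are making, and the labelled RNA is sequenced. The series has 3 single-cell clones with sg1617 edits of the enhancer of BCL11A, a repressor of fetal globin genes, and 2 libraries of wild-type HUDEP-2 cells. The clones differ in the edit (1 bp inserted, 13 bp deleted or 15 bp deleted), and each edit rests on 1 clone with 1 library. The calls have no column per library. They were made from 1 alignment whose name gives no edit and is not a sample title, so a difference between edited and wild-type cells was not tested here. They carry no read number either: a call says that a start passed the caller's threshold, not how strongly it was used, and there are no replicates. As a check of the cell type, the erythroid markers GATA1, KLF1, ALAS2, HBB, SLC4A1, TFRC and AHSP each had a promoter call. The lymphoid markers CD3E, MS4A1 and CD79A had none. Of the myeloid markers MPO, ELANE, CD14 and LYZ 0 of 4 had one, where a Wilson interval allows up to 49.0%.

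Immediate early genes are transcribed within minutes of a growth signal or a stress, without new protein synthesis. Signals through kinases of the MAPK family reach factors already bound at their promoters, chiefly serum response factor (SRF) with its ETS partners, and CREB at cyclic AMP response elements (CRE). Most members encode transcription factors. FOS and FOSB pair with JUN, JUNB or JUND to form AP-1, with JUND the least inducible of the JUN genes. ATF3 is a stress-induced factor of the ATF family, and EGR1 is a zinc finger factor. IER2 and IER3 are short genes first found by their rapid induction, and IER3 affects cell survival. In erythroid progenitors the growth signals include erythropoietin and stem cell factor.

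The promoters of 6 called members are shown because their motifs can be set against the called start to the base. Each sequence is from RefSeq (GRCh38.p14) and runs 5′ to 3′ on the gene's strand, from 140 bases before the annotated start through 30 bases from the start onward. Capitals mark matches to the motifs described below.
FOS, chr14:75278688-75278857, forward strand: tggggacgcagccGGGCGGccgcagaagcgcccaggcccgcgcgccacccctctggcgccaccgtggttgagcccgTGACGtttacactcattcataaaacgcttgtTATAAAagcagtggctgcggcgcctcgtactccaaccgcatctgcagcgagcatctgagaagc
FOSB, chr19:45467856-45468025, forward strand: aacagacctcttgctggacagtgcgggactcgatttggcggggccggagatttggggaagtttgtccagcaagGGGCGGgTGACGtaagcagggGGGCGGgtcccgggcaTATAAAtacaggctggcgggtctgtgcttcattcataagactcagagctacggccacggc
JUNB, chr19:12791346-12791515, forward strand: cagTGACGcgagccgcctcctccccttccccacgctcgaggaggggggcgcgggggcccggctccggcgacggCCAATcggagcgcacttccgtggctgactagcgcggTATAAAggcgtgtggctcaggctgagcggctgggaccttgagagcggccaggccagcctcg
JUN, chr1:58784018-58784187, reverse strand: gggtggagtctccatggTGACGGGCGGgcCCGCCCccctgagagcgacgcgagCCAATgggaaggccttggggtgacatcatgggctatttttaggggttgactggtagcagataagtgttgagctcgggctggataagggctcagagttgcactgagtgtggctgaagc
JUND, chr19:18281593-18281762, reverse strand: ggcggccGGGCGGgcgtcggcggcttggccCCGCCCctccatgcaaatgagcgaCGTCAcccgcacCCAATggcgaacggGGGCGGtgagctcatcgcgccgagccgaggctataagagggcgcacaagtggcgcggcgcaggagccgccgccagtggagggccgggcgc
EGR1, chr5:138465339-138465508, forward strand: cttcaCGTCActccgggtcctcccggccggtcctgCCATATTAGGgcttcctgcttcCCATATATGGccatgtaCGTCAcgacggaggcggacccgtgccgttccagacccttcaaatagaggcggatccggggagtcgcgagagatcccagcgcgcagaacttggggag

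Calls at the start of these genes lay on or beside the annotated base. FOS (gene ID 2353, chr14:75278828-75282230, forward strand) was called at 75278827, an offset of -1 bp. FOSB (gene ID 2354, chr19:45467996-45475179, forward) was called at 45467995, also -1 bp. JUND (gene ID 3727, chr19:18279694-18281622, reverse) was called at 18281623 and IER3 (gene ID 8870, chr6:30743199-30744547, reverse) at 30744548, again at -1 bp. These 4 calls thus sat on the base just before the annotated start, on both strands. JUNB (gene ID 3726, chr19:12791486-12793315, forward) was called at 12791486, the annotated base itself. EGR1 (gene ID 1958, chr5:138465479-138469303, forward) was called at 138465480, 1 bp downstream, and JUN (gene ID 3725, chr1:58780791-58784047, reverse) at 58784044, 3 bp downstream. IER2 (gene ID 9592, chr19:13150411-13154911, forward) stood apart, with its first call 116 bp downstream, at 13150527.

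The median offset of the 8 genes was -0.5 bp, against 1 bp (quartiles -1 and 22 bp) for the 1795 called protein-coding genes of at most 10 kb, a class that holds all 8. A call within 3 bp of the start was found in 7 of 8 members, against 41.1% of these short called genes. The offset of -1 bp was common elsewhere too: of 8248 transcript starts in the promoter table with a call from 200 bp before to 45 bp after them, 19.6% had it and 11.9% had an offset of 0. Initiation commonly uses a pyrimidine followed by a purine. Over these starts the purine lay 1 base past the called base in 43.2% of forward and 44.9% of reverse calls, and on the called base in 32.8% and 31.2%. In FOS, FOSB, JUN and JUND the base called was C and the next base A. In JUNB the base called was G, after a T, and in EGR1 it was A, with a G on either side. Whether the caller places calls 1 base early was not tested, and differences of 1 bp between members are not interpreted.

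**Figure D1:**
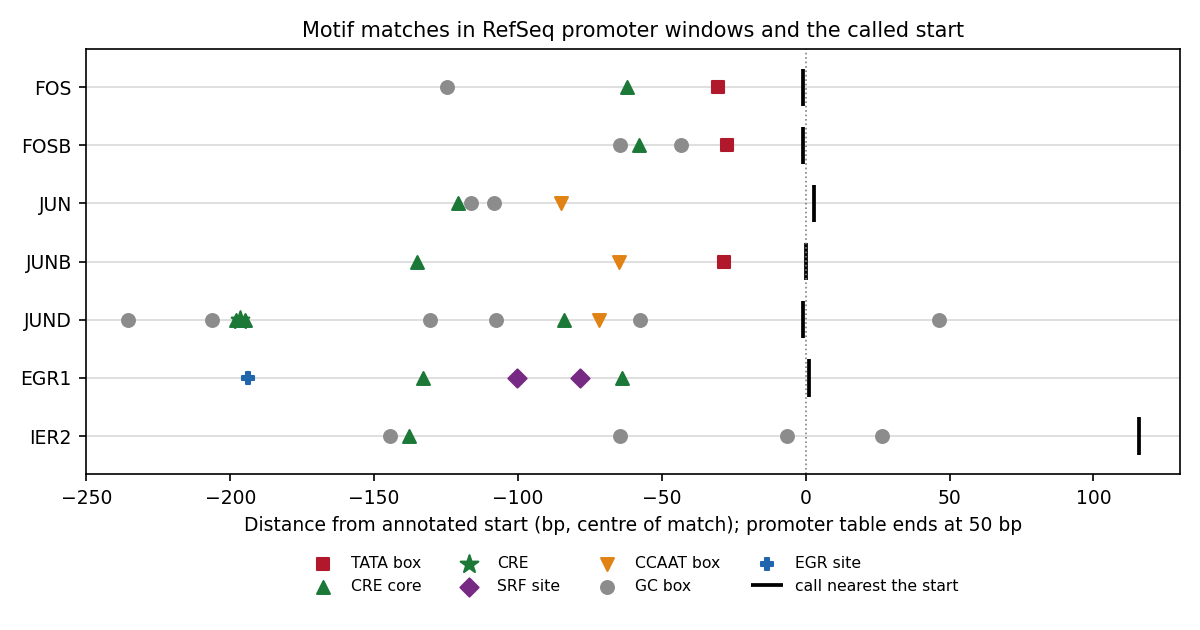
Motif matches (symbols, at the centre of the match) and the called start (black line) of 7 genes, by distance from the annotated start in bp. The TATA boxes of FOS, FOSB and JUNB lie between 33 and 25 bases before the start. The SRF matches found in the searched window are in EGR1, and the call of IER2 lies past the 50 bases the promoter table covers.

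A TATA box fixes the place of initiation to within a few bases, at a set distance downstream of the box. The letters TATAAA, searched on the gene's strand from 250 bases before to 50 bases after the start, were found in the promoters of FOS, FOSB and JUNB, beginning 33, 30 and 31 bases before the annotated start. The distance from the first base of the box to the called base was 32, 29 and 31 bases. A TATAAA beginning 20 to 40 bases before the start was present in 3 of the 8 members in the promoter table and in 2.3% of the table's 35116 promoters. For this and the other motifs, members are counted per gene, with a match in any of their windows. The table's promoters are counted singly, over 27305 genes, coding or not and called or not. ATF3 held the letters 230 bases before its second start, with no call near. JUN, JUND, EGR1 and IER2 had no TATAAA in the same window, and all but IER2 were called within 3 bp of the start. Only these exact letters were searched. Near matches, such as tataag in the JUND stretch printed above, were not counted, so these genes are not shown to lack a TATA-like element.

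The other motifs were searched on both strands of that window. The SRF site was searched as the CArG box, CC, then 6 bases of A or T, then GG. Among the 8 members in the promoter table it was found only in EGR1, as ccatattagg and ccatatatgg, 105 and 83 bases before the start. It occurs in 1.29% of all promoters. Sites outside the window and imperfect matches were not searched, so the other members are not shown to lack an SRF site. IER3 is not in the promoter table and was not searched for any motif. The windows of ATF3 lie at its outer and second starts, neither of which had a call. The sequence at its inner call was not searched, so matches or their lack in ATF3 describe uncalled starts. The CRE, TGACGTCA, was found in JUND, 200 bases before the start and outside the stretch printed above, and in 1.85% of all promoters. Its 5-base core TGACG, which also lies within each full CRE, was found in 7 of 8 members, all but ATF3, and in 24.6% of promoters, and in JUN its last base is the first of a GC box. In FOS it begins 64 bases before the start and in FOSB 60, so their promoters share a CRE core and a TATA box at nearly the same distances from the called base. The AP-1 site TGANTCA was found in 0 of 8 members and 7.71% of promoters. Near matches to the AP-1 site or the CRE, such as tgacatca in the JUN stretch printed above, were not counted. The members are thus not shown to lack a similar element. The CCAAT box was present in JUN, JUNB, JUND and ATF3 (34.6% of promoters), the GC box GGGCGG in 6 of 8, all but EGR1 and JUNB (45.0%), and the EGR site GCGNGGGCG, which can overlap a GC box, in EGR1 itself (9.43%). A match describes the letters only, and binding was not measured.

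Divergent initiation, a second start on the opposite strand just upstream, was called at 4 of the 8 genes. At JUNB the partner lay 142 bp upstream of the call, at 12791344. At JUND it lay 211 bp upstream, at 18281834, and at IER2 279 bp, at 13150248. At EGR1 the nearest reverse call was 784 bp upstream, at 138464696, and a second lay at 138464176. FOS, FOSB, JUN and IER3 had no opposite-strand call within 1000 bp upstream. Among short called genes 67.0% had one, with a median of 179 bp between the calls and quartiles of 119 and 274 bp, so 4 of 8 is not above the background, and the partners of EGR1 and IER2 are farther away than the upper quartile. With 500 bp in place of 1000 bp, 3 of 8 had a partner, without EGR1, against 63.5% of all called genes. JUN has an annotated divergent transcript, JUN-DT, whose start lies 1104 bp upstream of JUN's, yet no forward call was found within 20 kb. The reverse partner of IER2 lay 127 bp inside STX10, a membrane-trafficking gene whose annotated start is 36 bp from that of IER2, so it is also the promoter call of STX10.

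**Figure D2:**
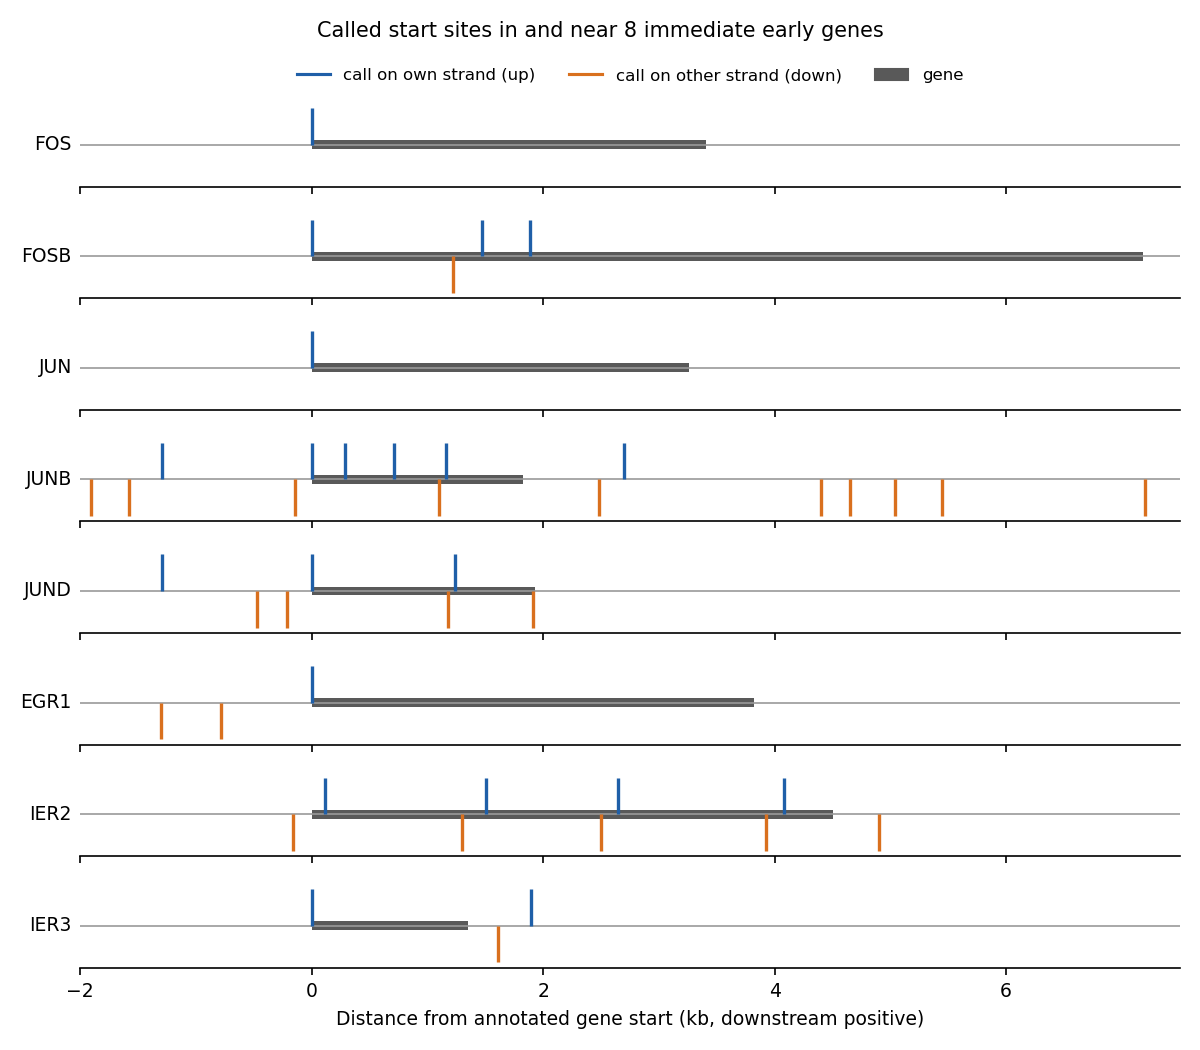
Calls from 2 kb before to 7.5 kb after the annotated start of 8 genes, own strand upward and other strand downward, with the gene as a grey bar. FOS and JUN have 1 call each in this window, IER2 has 3 further pairs inside the gene, and JUNB has 4 own-strand calls in 1830 bp.

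Inside the genes the members fell into distinct layouts. FOS, JUN and IER3 were called once, at the start, with nothing on the opposite strand inside the gene or within 1000 bp upstream. This layout was found in 3 of 8 members and 21.3% of short called genes. EGR1 also had 1 own-strand call and 0 other-strand calls inside. FOSB, JUNB, JUND and IER2 had 2 or more calls on their own strand, 4 of 8 against 24.9% of short called genes, and FOSB, JUNB and IER2 had 3 or more, 3 of 8 against 8.25%. The same 4 genes had an other-strand call inside the gene, against 26.3%. In JUNB that call is a promoter call of the neighbouring gene HOOK2, described below. In all, the 8 genes held 17 own-strand calls, with a median of 1.5, against 1 in short called genes. The density ran from 0.261 calls per kb in EGR1 to 2.19 in JUNB, with a median of 0.579 per kb, against 0.243 in short called genes. Density depends on length, since a single start call gives a shorter gene a higher value. The members were shorter, with a median length of 3330 bp against 5145 bp. FOS, JUN, EGR1 and IER3, with 1 call each, stood at 0.294, 0.307, 0.261 and 0.741 per kb. The densities are therefore not read as more initiation.

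IER2 had the most regular layout. After the promoter call at 116 bp, own-strand calls followed 1507, 2643 and 4081 bp from the start, at gaps of 1391, 1136 and 1438 bp. Each was preceded by a reverse call, at 1296, 2503 and 3922 bp, so the gene held 3 further divergent pairs, with 211, 140 and 159 bp between their calls. The spacing within the pairs was thus no wider than the 279 bp of its promoter pair. Of 1795 short called genes 4 had 3 or more such inner pairs, namely IER2, AKT1S1, CTDSP1 and KAZALD1, the last 3 named after their values were seen. Only 1.5% of these genes had as many other-strand calls inside as IER2. A reverse call also lay 399 bp past its end, at 13155310.

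FOSB had further own-strand calls 1474 and 1887 bp from the start, at 45469470 and 45469883. The first had a reverse call 249 bp upstream, at 45469221. JUND had an inner pair 65 bp apart, the forward call at 18280446 and the own-strand call at 18280381, 1241 bp from the start. A further forward call, at 18279711, lay 17 bp inside the far end of JUND, antisense to it. Taking the own-strand calls over 500 bp from the start in these genes, 6 of 8 had an other-strand call as the next call upstream within 1000 bp, against 32.1% of 499 such inner calls in short called genes. The 6 are 3 in IER2 and 1 each in FOSB, JUNB and JUND. The other-strand call of the JUNB pair is a promoter call of the neighbouring gene HOOK2, described below. Promoter calls of neighbours were left out of neither share.

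JUNB is the densest and the most entangled with a neighbour. Own-strand calls lay 0, 290, 715 and 1161 bp from the start, with gaps of 290, 425 and 446 bp, and 3.62% of short called genes had as many. The smallest gap between calls of 1 strand anywhere in the lists was 206 bp. With calls at most 500 bp apart merged, JUNB had a single own-strand cluster, and 3 of 8 members, against 13.8% of short called genes, still had 2 or more. The gene HOOK2, which encodes a linker of microtubules, is annotated on the reverse strand with its start inside JUNB, 864 bp from the start of JUNB. The reverse call inside JUNB, at 12792584, lay 234 bp upstream of that start and is a promoter call of HOOK2, 63 bp from the JUNB call at 12792647. Which of the genes the close calls belong to cannot be told apart by position alone.

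Own-strand calls past the gene end were found at JUNB and IER3, 2 of 8 against 18.7% of short called genes. At JUNB the call lay 866 bp past the end, at 12794181, paired with a reverse call at 12793971. The call at JUNB was not at the start of an annotated gene. At IER3 it lay 550 bp past the end, at 30742649, which is 38 bp inside the annotated start of FLOT1, a membrane scaffold gene on the same strand. It is therefore a promoter call of FLOT1, and without promoter calls of other genes 1 of 8 members had a call past its end. The forward partner of the FLOT1 call, at 30742935, lay 28 bp upstream of IER3-AS1, the antisense gene that runs into the end of IER3. FOS, FOSB, JUN, JUND and EGR1 had no own-strand call in the 20 kb past the end, and the first of IER2 lay 8329 bp past it.

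**Figure D3:**
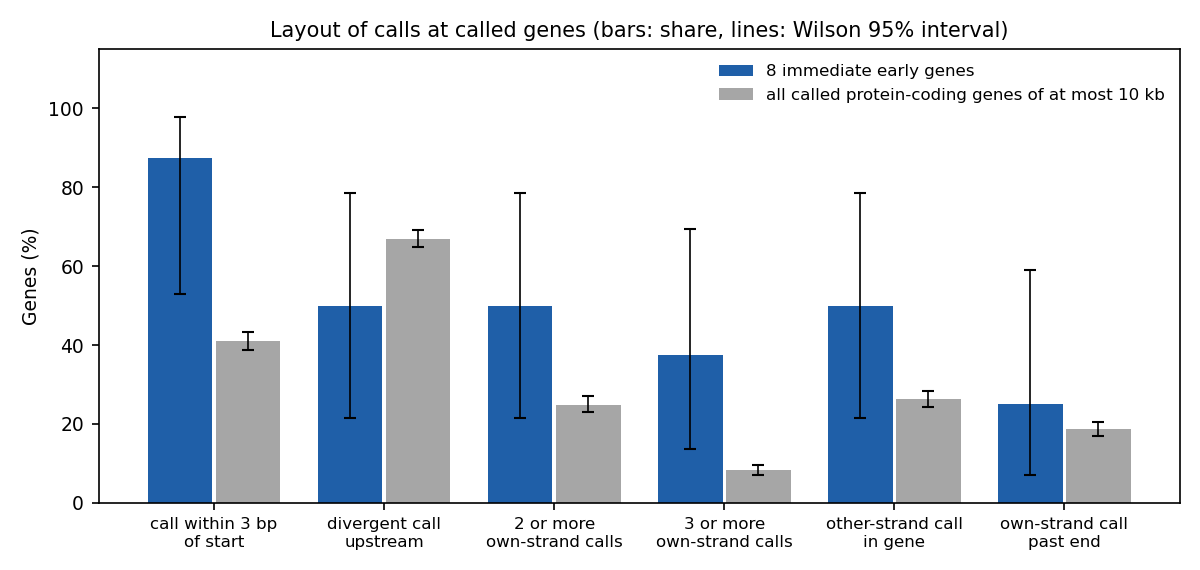
Shares of genes (%) with each feature in 8 immediate early genes (blue) and in 1795 called protein-coding genes of at most 10 kb, which include the 8 (grey), with Wilson 95% intervals. The call lay within 3 bp of the start in 7 of 8 members, against 41.1%, and a divergent partner was present in 4 of 8, against 67.0%.

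The Wilson intervals of the members are wide, from 52.9 to 97.8% for 7 of 8 genes and from 21.5 to 78.5% for 4 of 8. They cover counting over genes only, and the genes were picked by name rather than drawn, so no test was made.

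The flanks of 20 kb, without the own-strand calls up to 500 bp before the start, held 49 calls over the 9 genes. Over the 9 the median was 2 per gene and the range 0 to 22. The 8 called members had a median of 4 (quartiles 2 and 6.5), against 3 (quartiles 1 and 6) in short called genes. The flanks of JUN were empty: its call was the only one within 20 kb, and the nearest other call lay 32468 bp away. Among short called genes 11.6% had no flanking call. FOS had 2 flanking calls, a divergent pair 374 bp apart at 75258999 and 75259373, between genes, 19829 and 19455 bp upstream of the start. EGR1 had the 2 reverse upstream calls already described and nothing downstream.

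FOSB had 1 own-strand call 17796 bp upstream inside ERCC1, a DNA repair gene, and 1 reverse call 3472 bp past its end in TRU-TCA1-1, the gene of the selenocysteine transfer RNA. IER2 had, besides the STX10 call and the antisense call past its end, 4 calls 8033 to 12763 bp past its end, between genes, of which 13162944 and 13163240 form a divergent pair. JUND had 8 flanking calls, all upstream. Forward calls at 18281834 and 18282092 lay 212 and 470 bp before its start, the second on the leftmost annotated base of the non-coding gene LOC124904652. The second also lay inside the microRNA gene MIR3188, 15 bp from an end of it. A reverse call at 18282913 lay inside LOC124904652, and 5 calls lay 10075 to 11800 bp upstream around the non-coding gene LOC124904653. IER3 had 4 forward calls 16965 to 17999 bp past its end, at and beyond the far end of TUBB, a beta-tubulin gene that is transcribed in the opposite direction.

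JUNB alone held 22 of the 49 flanking calls, a number that 1.78% of short called genes reached. Upstream, all 9 lay inside HOOK2, among them divergent pairs at 12788650 and 12788809 and at 12789904 and 12790189, and the partner of the JUNB promoter call. Downstream, 4 lay between genes and 7 in PRDX2, an abundant red cell peroxiredoxin, or within 500 bp of its ends, and the reverse call at 12801800 fell on the first base of PRDX2. The last of the 7, a forward call at 12802190, lay 121 bp inside THSD8. A pair at 12806479 and 12806607 marked the start of RNASEH2A, a ribonuclease subunit gene. With each call put in 1 class only, 1 of the 22 was the upstream partner, 6 lay within 500 bp of an end of another gene, 11 of the others lay inside another gene and 4 lay between genes. Over the 9 genes 17 of 49 flanking calls lay between genes, over 500 bp from an end of any other gene.

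**Figure D4:**
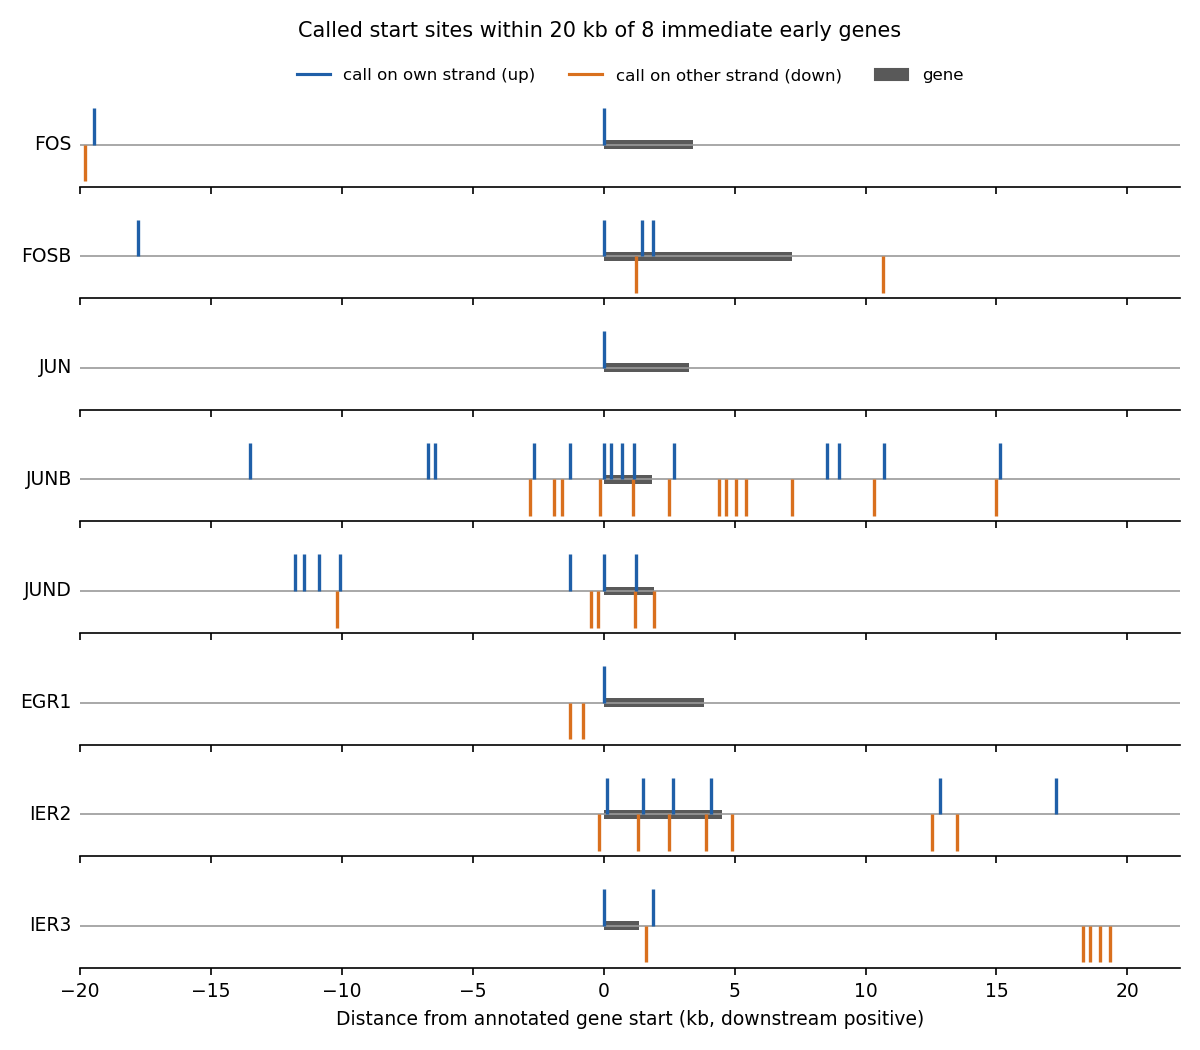
Calls within 20 kb of 8 genes by distance from the annotated start in kb, own strand upward and other strand downward, with the gene as a grey bar. JUN has no other call in the window, whereas JUNB has 22 calls outside the gene.

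ATF3 (gene ID 467, chr1:212565407-212620777, forward strand), 55371 bp long and much the longest of the 9, had no promoter call. The promoter table gives it a second start at 212615018, which also had no call within 500 bp. It held a single own-strand call inside the gene, at 212608760, 43353 bp from the outer start and 6258 bp before the second start. No call of the other strand accompanied it, and the nearest call on either strand was 49665 bp away. That neighbour, at 212559095, lay 6312 bp upstream of the gene on the same strand. Other inner starts of ATF3 were not used here, so the call inside the gene was not assigned to a transcript.

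With ATF3 the share of called members was 88.9% (Wilson 95% interval 56.5 to 98.0%), against 41.6% of all 19974 protein-coding genes (interval 40.9 to 42.3%). Within 100 bp of the start 7 of 9 were called, without IER2, against 36.9% of all protein-coding genes. Counting any own-strand call inside a gene or up to 500 bp from it, 9 of 9 were called, against 50% of all protein-coding genes.

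A wider list of 40 other immediate early genes addressed how general such calls were in the class. Of these, 24 were called (60.0%, interval 44.6 to 73.7%), against 41.6% of all protein-coding genes. The other 16 were not, and 12 of the 16 had 0 calls on both strands, from 500 bp before the gene to 500 bp after. Only the outer start of each gene was used for these lists. Own-strand calls inside an uncalled gene were not assigned to a transcript. Families, counted with the 9 members, differed in how many genes were called, but each is too small to set against the 41.6% of all protein-coding genes. All 4 FOS family genes were called, with FOSL1 at 157 bp and FOSL2 at 0 bp, as were 3 of 3 JUN genes. In the EGR family EGR1 was called, 1 of 4, and EGR2, EGR3 and EGR4 had 0 calls on either strand. Of the orphan nuclear receptors of the NR4A family NR4A2 was called at 9 bp, 1 of 3, and NR4A3 had 0 calls. NR4A1 had 1 own-strand and 4 other-strand calls inside but none at its outer start.

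The MAPK phosphatase genes DUSP1, DUSP2 and DUSP6 were called at 0, -1 and 3 bp and DUSP5 was not. SOCS3, which encodes an inhibitor of cytokine signalling, the pseudokinase gene TRIB1 and the kinase gene SIK1 had 0 calls on either strand. The genes of the mRNA-decay factors ZFP36 and ZFP36L1 were called at -1 and 161 bp, and ZFP36L2 met the rule at both ends, with 13 reverse and 2 forward calls in or near it. BTG1 and BTG2, antiproliferative genes, were called at -4 and -1 bp. IER5 was called at 0 bp, with a partner 174 bp upstream, and like IER2 it had more than 1 own-strand call. KLF6 and KLF10 were called and KLF2 and KLF4 were not. CCN2, which encodes a matrix-associated signalling protein, and ARC, a neuronal activity gene, had 0 calls, whereas CCN1 was called at -1 bp. MYC was called at 7 bp with 18 own-strand calls, the most of the 40. In the wider list 16 of the 23 oriented called genes had a divergent partner, against 66.2% of all called genes, and 6 had 2 or more own-strand calls, against 27.0%. Neither share was far from that of all called genes.

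Of 20 genes that regulate this class 15 were called (interval 53.1 to 88.8%), against 41.6% of all protein-coding genes. They included SRF at 0 bp, its partners ELK1 and ELK4 at 38 and 39 bp, the coactivator MRTFA at 43 bp and CREB1 at -1 bp. The kinase genes MAP2K1 and MAP2K2 were called at -1 and 6 bp and MAPK14 at 3 bp. ELK3, MRTFB and RPS6KA3 had 0 calls on either strand, and ATF1 and MAPK3 had calls in or near the gene but none at the outer start. Of 10 genes of AP-1 and ATF partners 2 were called, ATF2 at 2 bp and ATF4 at 5 bp. The interval, 5.67 to 51.0%, includes the 41.6% of all protein-coding genes. BATF, BATF2, BATF3, JDP2, MAFF and MAFK had 0 calls. SRF and MAFF each stand in 2 of these lists. These lists were drawn up with earlier results of the same data known, so their counts describe HUDEP-2 calls and are not independent support for a difference.

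**Figure D5:**
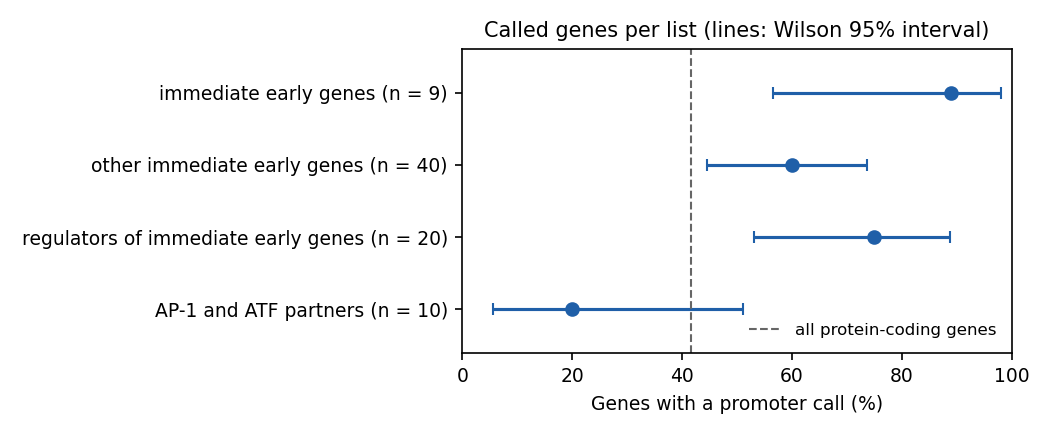
Share of genes with a promoter call (%) in the 9 immediate early genes and 3 further lists, with Wilson 95% intervals, and in all protein-coding genes (dashed line, 41.6%). The 9 members stand at 88.9%, the wider list at 60.0%, 15 of 20 regulators were called and 2 of 10 AP-1 and ATF partners.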

How the data were processed

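PRO-seq was made from 5 libraries, per the labels. Start sites were called by the authors with TSScall from a single sorted, de-duplicated HUDEP-2 alignment, per the file headers, and deposited as 1 list per strand. BWA 0.7.16a, Picard, SAMtools 1.17, deepTools 3.5.4 and build hg38 are named in the submitters' processing notes. The version of TSScall and its read minimum were not given in the sources used here. Each of the 14124 forward and 14159 reverse calls is 1 base long, and its end was taken as the 1-based position. The score deposited by the authors is 0 for every call, so depth is unknown and there is no spread between libraries.

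Gene limits came from the RefSeq gene table and strands and promoter sequences from the RefSeq promoter table, both GRCh38.p14. A strand was available for 15814 of 19974 protein-coding genes, that of IER3 as the opposite of IER3-AS1. For the other 4160 both ends were tried, and 26 called at both ends were left out of everything but the count of called genes. A promoter call lay within 500 bp of the outer start, and a divergent call 0 to 1000 bp upstream of it on the other strand. Own-strand calls were counted from 500 bp upstream to the gene end. The genes named were all 9 members, those of the further lists and those at a flanking call. Some genes of the further lists and markers are not reported here. The members and lists were chosen with earlier results of these data known. The counting was tested on simulated calls planted at 200 genes among 15814, and 200 were recovered. The planted genes had a given strand and no other protein-coding gene close by, so crowded loci such as JUNB and IER2 were not tested. Other-strand calls inside genes, inner pairs and flanking calls were not tested either. Alternatives changed the windows, merged close calls or left out calls of other genes. Tables were made with pandas 2.3.3 and numpy 2.4.6 in Python 3.11.15, intervals with scipy 1.17.1, and plots with matplotlib 3.10.9. Exon and intron limits were not used here.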

Additional observations from a re-analysis of the deposited data

How the results depend on the processing

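Of 22 alternatives over 8 results, 19 left the count within 1.5 times its value or the offset within its spread over genes. These limits were loose for some results. The spread of the offset was wide because IER2 lay at 116 bp, and the 8 of 9 called members could not rise 1.5 times. The alternatives that went beyond these limits were as follows. Leaving out promoter calls of other genes reduced the members with own-strand calls past the end to 1 of 8, and 4.49% of called genes then had one. The 49 flanking calls became 79 with flanks of 50 kb and 31 without calls within 500 bp of an end of any gene. Own-strand calls fell to 13 in place of 17 when calls within 500 bp were merged, and to 13 when calls before the annotated start were left out. With genes that overlap no other gene, 3 of 6 members had 2 or more own-strand calls, against 22.4% of such short called genes. Within the promoter table alone 7 of 8 members were called, against 43.9%. These 2 alternatives, any transcript start of the table (8 of 9, against 45.5%) and pairing at any own-strand call (5 of 8, against 70.6% of called genes) were chosen after seeing the data. No paired analysis was possible because the calls have no column per library. For the same reason no library could be left out. The number of reads behind a call limits what an uncalled gene means: a start below the caller's threshold is not listed.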
